A study of Mus musculus with 8 samples.

Results

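Smooth muscle cells (SMC) of the mouse lung were the 149 cells that the authors' cell table labels SMC, out of 41,106 deposited cells, or out of 40,074 once 1,025 cells labelled as multiplets and 7 labelled as cell cycle were set aside. The single-cell suspensions came from the lungs of 8 mice. Each mouse gave between 4 and 35 SMC: 15, 35, 24 and 16 in the 4 mice exposed to cigarette smoke (CS), and 28, 16, 11 and 4 in the 4 mice kept in room air (RA). All 149 lay in a single Seurat cluster of 398 cells, and the other 249 cells of that cluster were 249 of the 252 peribronchial fibroblasts. The split between the 2 labels was therefore made by the authors inside 1 cluster. Pericytes numbered 272, adventitial fibroblasts 1,403 and alveolar fibroblasts 2,014. The pericytes were spread unevenly, with 3, 10, 10 and 22 in the CS mice and 126, 84, 13 and 4 in the RA mice, in the same order. Means over 8 mice give each mouse the same weight, whatever its number of cells.

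Smooth muscle rings the airways and the arteries and veins of the lung and sets their calibre. Its cells shorten when calcium and calmodulin activate myosin light chain kinase, and they relax when nitric oxide and cyclic GMP lower calcium or reactivate myosin phosphatase. Serum response factor (SRF) with its partner myocardin drives the contractile genes through a DNA element called the CArG box. Pericytes are the mural cells of capillaries and share several receptors with vascular smooth muscle, while peribronchial fibroblasts lie around the airways next to the muscle.

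All 8 mice carried Sftpc-CreERT2 and the mTmG reporter on a C57BL/6 background and had received tamoxifen, an allele pair that marks the Sftpc-expressing alveolar epithelium and not the muscle, in CS and RA alike. They entered the study at 8 to 10 weeks of age and were exposed for 10 months to CS from research cigarettes or to RA. Lungs were digested with enzymes and sorted on CD45, and immune and structural cells were recombined before capture with the 10x Genomics 3′ assay, so the number of SMC reflects digestion, sorting and capture as well as the tissue. Each lane code in the library names holds 1 CS mouse and 1 RA mouse.

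The deposited values are unique molecular identifier (UMI) counts after removal of free RNA. They were scaled to 10,000 transcripts per cell, and the level of a gene in a mouse is the mean over that mouse's cells of one type, given below as transcripts per 10,000. The total per SMC ran from 1257 to 70506, with a median of 5805, against 3501 in pericytes and 4274 in peribronchial fibroblasts. The barcode of 1 SMC was also found in another library, and no barcode was shared by 2 SMC. Sex-linked transcripts went against the label in all 4 CS libraries: the SMC of the CS libraries labelled male held Xist, expressed from the inactive X chromosome, at 8.28 and 8.08, and the CS libraries with a female label had Ddx3y, a Y-linked gene, at 2.24 and 1.96 in SMC. The SMC of the 4 RA libraries matched their labels, with Xist at 7.80 and 6.51 in the libraries labelled female and Ddx3y at 4.82 and 0.564 in those labelled male. The comparisons below use the labels for exposure only, and the labelled sex entered only an alternative fit. Because the labels SMC, pericyte and fibroblast come from clustering of the same transcripts, differences between these types are described by their size and by the number of mice that share them, and were not tested.

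The 3 genes that mark the label were at their highest in SMC among all 32 cell types. Acta2, smooth muscle α-actin (chromosome 19, 34241090 to 34255590 of GRCm38, minus strand), stood at 197, 149, 99.99 and 137 transcripts per 10,000 in SMC of the CS mice C2, C5, D2 and D5, and at 141, 124, 109 and 61.4 in the RA mice F1, F3, M1 and M3. Pericytes held 0.785 ± 1.01 (SD, n = 8 mice) and peribronchial fibroblasts 7.0 ± 3.46, so that every mouse had far more Acta2 in SMC than in either type. Myh11, the smooth muscle myosin heavy chain (chromosome 16, 14194535 to 14291372), stood at 52.1, 31.3, 23.4 and 32.2 in CS mice and at 26.1, 21, 30.4 and 25.2 in RA mice, with 3.81 ± 1.92 in pericytes and 1.63 ± 1.07 in peribronchial fibroblasts. Des, desmin, the intermediate filament of muscle (chromosome 1, 75360329 to 75368579), stood at 22.8, 16.3, 10.4 and 9.35 in CS mice and at 23.5, 13.7, 8.83 and 11.8 in RA mice. Of the 3, Des separated the types least, at 4.28 ± 2.12 in pericytes and 3.85 ± 1.29 in peribronchial fibroblasts.

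On the scale log2(level + 1), the mean within-mouse difference between SMC and pericytes was 6.25 (SD 0.77, n = 8 mice) for Acta2, 2.73 (SD 0.41) for Myh11 and 1.6 (SD 1.01) for Des. Against peribronchial fibroblasts it was 4.03 (SD 0.44), 3.63 (SD 0.64) and 1.65 (SD 0.50). Acta2 thus set SMC apart from pericytes more than from peribronchial fibroblasts, while Myh11 did the reverse. An Acta2 transcript was found in 146 of 149 SMC (98.0%, exact 95% interval 94.2 to 99.6, counting error only), Myh11 in 144 and Des in 135. All 3 were found in 131 SMC (87.9%), 2 of them in 14, 1 in 4 and none in 0, which allows a share of up to 2.01%. After every cell was thinned to 1000 transcripts, the share of cells with Acta2 was 93.3% in SMC, 2.57% in pericytes, 27.8% in peribronchial fibroblasts and 0.343% in B cells, which should lack it. Unthinned, these shares were 98.0%, 6.99%, 59.5% and 0.557%, at median depths of 5805, 3501, 4274 and 4055 transcripts. Myh11 was left in 79.9% and Des in 64.4% of SMC after thinning.

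**Figure D1:**
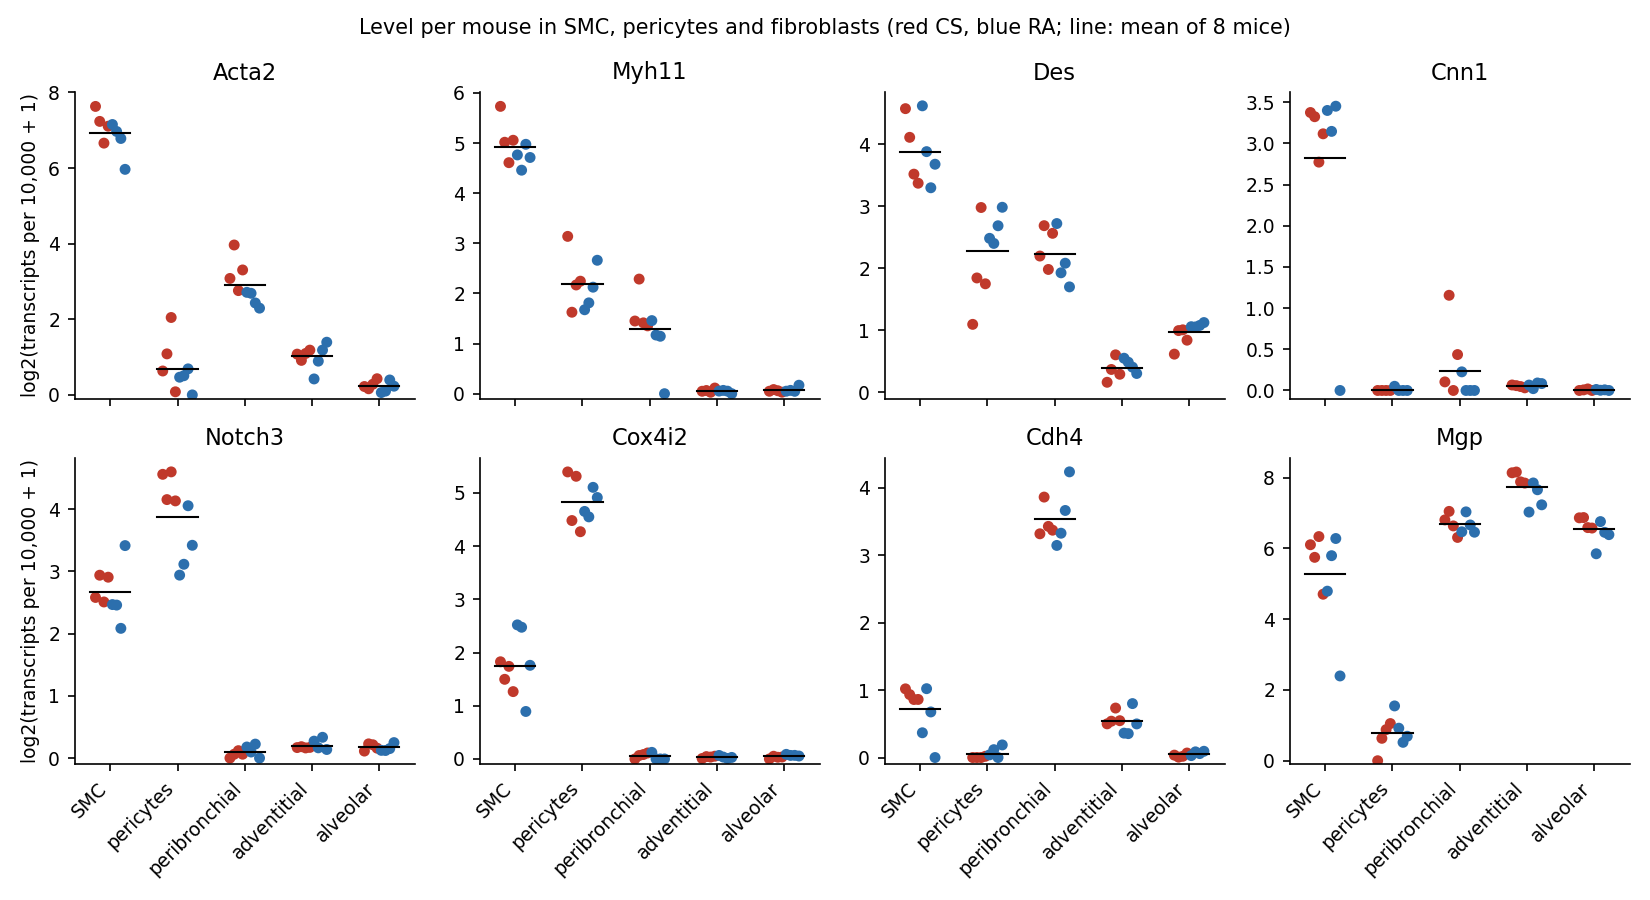
Level per mouse of 8 genes in SMC, pericytes and peribronchial, adventitial and alveolar fibroblasts, on the scale log2(transcripts per 10,000 + 1); each point is a mouse (red CS, blue RA) and the line is the mean of 8 mice. Acta2 in SMC lay between 61.4 and 197 transcripts per 10,000 in every mouse; Notch3 and Cox4i2 were higher in pericytes, Cdh4 in peribronchial fibroblasts and Mgp in all 3 fibroblast types. The RA mouse with 4 SMC held no Cnn1 transcript.

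Because contractile genes are textbook targets of SRF, the letters before their RefSeq starts (GRCm38.p6) were searched for the CArG box. Of 38 genes in the contractile list, 32 had an entry. Myh11, Tagln and Actg2 were among those without one and could not be searched. The pattern of a full CArG box matches on both strands or on neither. A full box lay in the windows (250 bases before to 50 after the start) of 5 of the 32 (15.6%), against 1.81% of 27,025 genes. A box or near box lay in 10 of the 32 (31.2%), against 11.3% of all genes. A near box kept the outer CC and GG and had 1 letter off between them. Matches with a letter off in the CC or GG were not counted. The 250 bases before the start are shown for Acta2, the first marker of the label, and for Actc1 and Myl9, whose windows hold a full box and which are among the 20 genes with the largest ratio of SMC to the next type. They run 5′ to 3′ on the gene's strand, with each box or near box in capitals.

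Acta2, chr19:34255374-34255623, minus strand: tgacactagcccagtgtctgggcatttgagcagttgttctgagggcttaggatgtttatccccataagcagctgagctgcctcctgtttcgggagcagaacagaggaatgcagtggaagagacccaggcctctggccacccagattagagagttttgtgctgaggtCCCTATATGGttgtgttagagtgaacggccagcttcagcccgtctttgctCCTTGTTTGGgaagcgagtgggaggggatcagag
Actc1, chr2:114052876-114053125, minus strand: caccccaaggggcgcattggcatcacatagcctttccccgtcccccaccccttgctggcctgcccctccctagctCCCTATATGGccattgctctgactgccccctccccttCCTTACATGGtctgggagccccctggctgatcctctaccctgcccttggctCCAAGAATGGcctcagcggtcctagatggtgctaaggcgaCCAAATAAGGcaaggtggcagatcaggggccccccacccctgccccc
Myl9, chr2:156775214-156775463, plus strand: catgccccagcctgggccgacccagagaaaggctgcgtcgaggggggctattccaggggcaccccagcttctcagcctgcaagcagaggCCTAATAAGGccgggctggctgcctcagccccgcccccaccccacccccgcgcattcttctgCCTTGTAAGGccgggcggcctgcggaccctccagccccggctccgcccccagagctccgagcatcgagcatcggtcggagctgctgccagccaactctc

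The capitals in Acta2 mark matches 1 letter off a full box, at 84 and 34 bases before the RefSeq start. In Actc1 they begin 175, 138, 87 and 47 bases before it, of which the last is a full box. In Myl9 they begin 161 and 99 bases before it, of which the first is a full box. These distances hold for the RefSeq starts only. In GENCODE, Acta2 starts at 34255590, Actc1 at 114053548 and Myl9 at 156775420. By those starts all of the Actc1 letters, most of the Acta2 letters and the last of the Myl9 letters lie inside the gene. A match is a description of the letters and does not show binding.

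SMC had a small set of transcripts that hardly occurred elsewhere. Of 1,939 genes with a mean over all SMC of at least 1 transcript per 10,000, 171 were higher in SMC than in any of the other 31 types, and 24 were at least 4 times as high as in the next type. Peribronchial fibroblasts were the next highest type for 39 of the 171, mesothelium for 22 and pericytes for 19. The largest ratio belonged to Actc1, cardiac α-actin, at 12.0 in SMC against 0.264 in peribronchial fibroblasts, a ratio of 45.4. Scube3, a secreted glycoprotein, followed at 38.3 times the next type, with a level of only 1.09. Cnn1, calponin, the actin-binding brake on smooth muscle myosin, stood at 8.20 against 0.294, a ratio of 27.9.

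Among the other genes with the largest ratios were parts of the contractile machine and its stress proteins. Ldb3, a Z-disc protein, was 20.04 times as high as in the next type, Acta2 18.4 times, Actg2, the enteric smooth muscle actin, 14.1 times, Myl9, the regulatory light chain, 12.3 times, Tpm2, β-tropomyosin, 11.9 times and Myh11 11.4 times. Tagln, transgelin, reached 7.97 times and Lmod1, leiomodin, which nucleates actin filaments, 7.52 times. The small heat shock proteins Hspb6 and Hspb7, both known from muscle, were 9.21 and 6.02 times as high. Plin4, a lipid droplet coat protein, was 16.2 times as high and Aoc3, a vascular amine oxidase, 10.96 times. Ctnna3, the α-catenin of muscle junctions, was 10.3 times as high as in the next type. The rest of the 20 largest ratios were those of Fbxl22 (7.88), Rbpms2 (6.17), Stac (5.28) and Galnt16 (5.13).

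Genes of the contractile apparatus stood above both neighbouring types. Of its 38 genes, 37 passed the filter on low values (found in at least 10% of SMC of either exposure group), and 30 of these were higher in SMC than in pericytes in all 8 mice, with 0 lower; over all 8,880 genes the share higher in all 8 was 6.75%. Against peribronchial fibroblasts, 28 were higher and 1 lower in all 8 mice, with 4.77% of all genes higher. The median difference was 1.56 on the log2 scale against pericytes and 1.64 against peribronchial fibroblasts, where the medians of all genes were 0.02 and 0.01. For this and all lists below, the filter looked at SMC only. A gene rare in SMC but high in another type was therefore not counted as lower.

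Tagln, an early marker of the smooth muscle lineage, stood at 110, 91.4, 71.1 and 85.3 in SMC of CS mice and at 85.0, 66.4, 59.7 and 25.6 in those of RA mice, against 0.758 ± 0.746 in pericytes and 9.23 ± 3.71 in peribronchial fibroblasts. Cnn1 stood at 9.38, 9.02, 5.84 and 7.68 in CS mice and at 9.56, 7.86, 9.95 and 0 in RA mice, and its pericyte mean was 0.00448. The Cnn1 value of 0 came from the RA mouse with 4 SMC. Actc1 reached 20.2, 15.5, 6.31 and 10.1 in CS mice and 16.3, 4.78, 7.25 and 4.02 in RA mice. Actg2 reached 13.3, 8.61, 4.63 and 6.95 in CS mice and 9.27, 4.70, 8.03 and 1.98 in RA mice. Both varied widely over the 8 mice, and CS and RA mice overlapped in both.

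Members of the contractile list that did not set SMC apart from pericytes were Ppp1r14a, the inhibitor of myosin phosphatase known as CPI-17, at 10.6 ± 3.72 in SMC and 11.9 in pericytes, and Cryab, αB-crystallin, at 3.58 ± 1.44 and 4.77. Both were far lower in peribronchial fibroblasts, at 0.725 and 0.919. Mustn1, a small muscle nuclear protein, showed the opposite: 16.2 ± 4.23 in SMC, 0.0514 in pericytes and 11.9 in peribronchial fibroblasts. Myl6, the essential light chain of non-muscle and smooth muscle myosin, was found in all 5 mesenchymal types, at 38.5 ± 14.1 in SMC against 4.83 in pericytes and 7.44 in peribronchial fibroblasts. Pcp4, also on the list, was found in only 1.34% of SMC.

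Most pericyte genes were lower in SMC than in pericytes and higher than in peribronchial fibroblasts. Of 18 genes in that list, 15 passed the filter; 12 were lower in SMC than in pericytes in all 8 mice, against 4.47% of all genes, and 10 were higher and 1 lower in SMC than in peribronchial fibroblasts in all 8, against 4.77% and 4.14%. The median log2 difference was -2.20 to pericytes and 1.24 to peribronchial fibroblasts. Notch3, the Notch receptor of mural cells, stood at 4.98, 6.66, 4.69 and 6.50 in SMC of CS mice and at 4.53, 4.50, 3.24 and 9.66 in those of RA mice, against 14.8 ± 6.35 in pericytes and 0.0677 in peribronchial fibroblasts. Trpc6, a receptor-operated cation channel, was at 2.12 ± 1.30 in SMC and 27.3 in pericytes, and Cox4i2, the hypoxia-linked cytochrome oxidase subunit, at 2.58 ± 1.39 and 28.6. Pdgfrb, the PDGF receptor by which endothelium recruits mural cells, was at 3.72 ± 2.10 in SMC and 17.2 in pericytes. Postn, periostin, was at 3.0 ± 1.69 and 20.3. Each of these 5 was higher in SMC than in peribronchial fibroblasts in all 8 mice. The exception in the list was Abcc9, a subunit of ATP-sensitive potassium channels, which was higher in SMC (1.5 ± 0.682) than in pericytes (0.168) in all 8 mice.

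**Figure D2:**
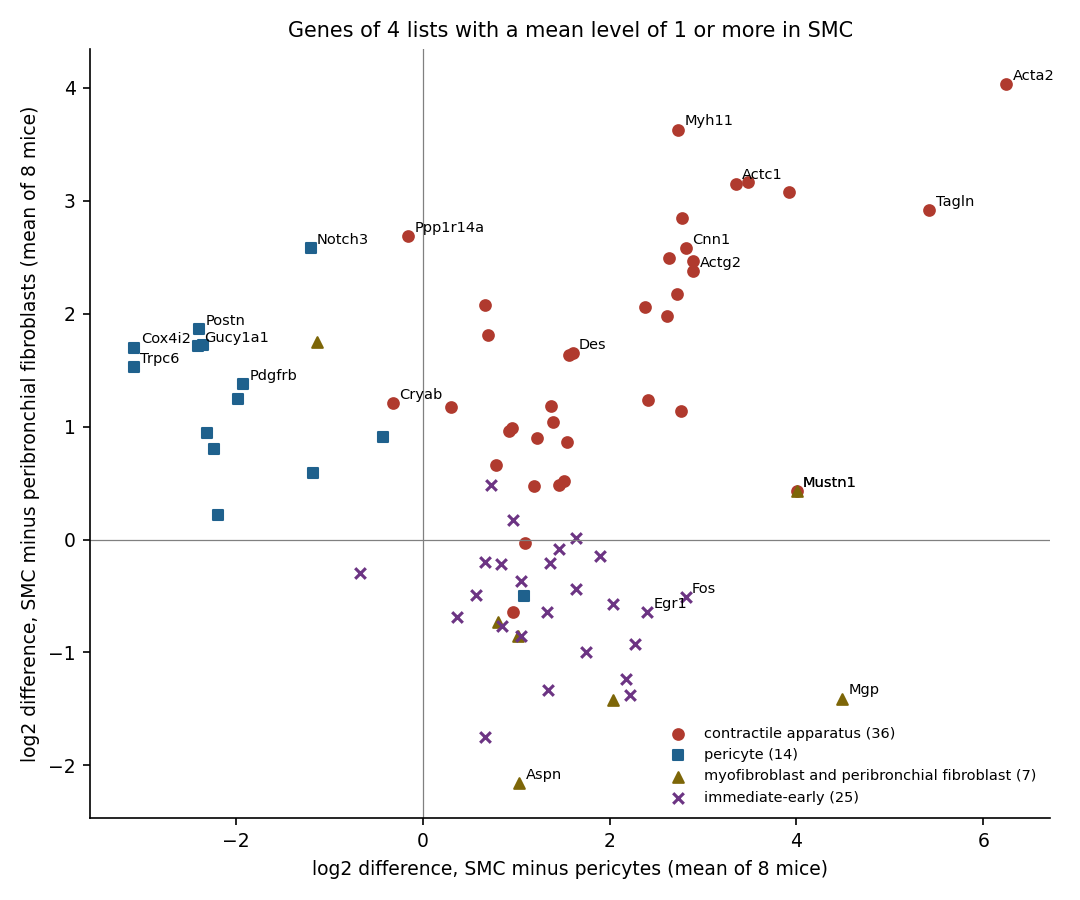
Genes of 4 lists with a mean level of 1 or more in SMC, placed by the mean over 8 mice of the within-mouse log2 difference to pericytes (x axis) and to peribronchial fibroblasts (y axis). Contractile genes lie mostly at the upper right, pericyte genes at the upper left, and immediate-early genes at the lower right; the number of genes drawn is in the legend.

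Genes of peribronchial fibroblasts and myofibroblasts ran the other way. Of 15 in the list, 9 passed the filter, of which 6 were lower and 1 higher in SMC than in peribronchial fibroblasts in all 8 mice, against 4.14% and 4.77% of all genes, and 5 were higher and 1 lower than in pericytes, against 6.75% and 4.47%. Mgp, matrix Gla protein, an inhibitor of calcification, stood at 48.4 ± 27.2 in SMC, 0.791 in pericytes and 103 in peribronchial fibroblasts. Aspn, asporin, was at 1.57 ± 0.807, 0.224 and 10.4. Cdh4, R-cadherin, was at 0.685 in SMC and 10.99 in peribronchial fibroblasts. Hhip, the hedgehog-interacting protein, marked peribronchial fibroblasts at 50.2 and was found in only 4 of 149 SMC, at a mean of 0.183. Mgp varied widely among mice, from 4.26 in the RA mouse with 4 SMC to 79.6.

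Genes of the fibroblast lineage set SMC apart from the other fibroblasts. Of 20 in the list, 12 passed the filter, and 8 of these were lower in SMC than in adventitial fibroblasts in all 8 mice, against 7.13% of all genes, with 1 higher (5.37%). Against alveolar fibroblasts 8 were lower (8.03% of all genes) and 1 higher (6.55%). Gsn, gelsolin, stood at 15 ± 8.87 in SMC, 249 in adventitial and 127 in alveolar fibroblasts, and Clec3b, tetranectin, at 0.418 ± 0.884, 29.4 and 3.83. Limch1, which activates non-muscle myosin, was at 6.09 ± 1.43 in SMC, 6.98 in adventitial and 26.6 in alveolar fibroblasts, but at 0.312 in pericytes and 0.271 in peribronchial fibroblasts. Of the 37 contractile genes that passed the filter, 31 were higher in SMC than in adventitial fibroblasts in all 8 mice and 26 higher than in alveolar fibroblasts, with 0 and 3 lower.

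Genes listed for vascular and for airway smooth muscle were both found in SMC. Actc1 and Notch3 were found together in 72 SMC, Actc1 alone in 21, Notch3 alone in 41 and neither in 15, and a gene that was not found in a cell at this depth may still be expressed there. Among vascular genes, Ntrk3, the neurotrophin-3 receptor, stood at 3.94 ± 1.40 in SMC, 0.00179 in pericytes and 1.76 in peribronchial fibroblasts, and Itih4, listed as a vascular muscle gene, at 3.23 ± 2.52, 0.00666 and 0.406. Pde3a, the cyclic GMP-inhibited phosphodiesterase, was at 7.96 ± 3.97, 11.1 and 0.714. Among airway genes, Itga8, integrin α8, was at 7.66 ± 3.86, 0.159 and 0.102, while the muscarinic receptor Chrm2 was found in 10.1% of SMC at 0.442 ± 0.662, and Lgr6 in 36.2% at 1.13 ± 0.683. Of the cardiac genes that pulmonary vein sleeves express, the atrial myosin Myh6 was in 0 of 149 SMC and the troponin Tnni3 in 2, whereas Tcap, telethonin, was in 66 and Ryr2, the ryanodine receptor of heart, in 38.9% of SMC. Of the 13, 7 and 3 genes of these vascular, airway and cardiac lists that passed the filter, 2, 3 and 0 were higher and 2, 1 and 0 lower than in pericytes in all 8 mice, against 6.75% and 4.47% of all genes.

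The regulators of the contractile programme differed in how well they tracked it. Myocd, myocardin, the coactivator of SRF, stood at 5.12 ± 1.94 in SMC, 0.0151 in pericytes and 2.25 in peribronchial fibroblasts, and was higher in SMC in all 8 mice against both. It was found in 90 of 149 SMC (60.4%). Rock1, a kinase that inhibits myosin phosphatase, was at 6.22 ± 1.33, 2.68 and 2.84, also higher in all 8 mice against both, whereas its relative Rock2 was at 4.75 ± 0.813, 5.70 and 4.61. Gata6 was at 1.17 ± 0.450 in SMC and 0.0256 in pericytes. Klf4, which represses contractile genes, was at 4.79 ± 1.78 in SMC and higher in peribronchial fibroblasts in all 8 mice, at 9.70. Of the 18 genes of this list that passed the filter, 4 were higher in SMC than in pericytes in all 8 mice and 0 lower (6.75% and 4.47% of all genes).

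Genes for calcium entry and release differed from pericytes in both directions. Cacna1c, the pore of the L-type calcium channel, stood at 28 ± 5.85 in SMC, 24 in pericytes and 12.9 in peribronchial fibroblasts, higher than in peribronchial fibroblasts in all 8 mice but higher than in pericytes in only 5. Itpr1, the inositol trisphosphate receptor of the sarcoplasmic reticulum, was at 4.18 ± 0.827 in SMC and 2.06 in pericytes, and Atp2a2, the SERCA2 calcium pump, at 3.59 ± 1.31 and 1.31, each higher in 8 of 8 mice. Itpr2, a paralogue of Itpr1, was the reverse, at 0.382 ± 0.271 and 3.90, and Cacna1d was at 0.141 ± 0.183 and 2.93. Kcnma1, the calcium-activated potassium channel, was at 1.22 ± 0.816 in SMC, 0.0434 in pericytes and 2.60 in peribronchial fibroblasts. Over the 25 genes of the list that passed the filter, 4 were higher and 5 lower than in pericytes in all 8 mice (6.75% and 4.47% of all genes).

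Genes of cyclic nucleotide signalling, which relaxes the muscle, differed from pericytes in both directions. Gucy1a1 and Gucy1b1, the 2 subunits of soluble guanylate cyclase, stood at 5.73 ± 2.27 and 4.16 ± 0.959 in SMC and at 34.5 and 26.1 in pericytes, with 1.03 and 0.553 in peribronchial fibroblasts. Pde5a, the phosphodiesterase that sildenafil inhibits, was at 4.56 ± 1.90 in SMC and 37.4 in pericytes, and Prkg1, cyclic GMP-dependent kinase I, at 26.8 ± 5.91 and 81.1. Gucy1a1, Gucy1b1 and Pde5a were lower than in pericytes in all 8 mice and Prkg1 in 7. Adcy5, an adenylate cyclase, was at 2.77 ± 1.18 in SMC and 0.133 in pericytes, and Pde1a, a calmodulin-dependent phosphodiesterase, at 1.29 ± 0.554 and 0.0245, both higher in SMC in all 8 mice. In total 3 of 17 genes were higher and 4 lower than in pericytes in all 8 mice, as were 6.75% and 4.47% of all genes, and the median log2 difference of the list was 0.14.

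Of 36 receptors for contractile hormones, 12 passed the filter and 8 were at 0 in every SMC, while of 33,027 genes in the matrix 8,880 passed and 18,667 were found in an SMC. Ednra, the endothelin A receptor, was at 2.89 ± 1.6 in SMC and 5.43 in pericytes, Ednrb at 0.695 ± 0.537 and 0.124, and P2rx1, the ATP-gated channel of vascular muscle, at 0.494 ± 0.413 and 0.0144. Agtr1a, the angiotensin II receptor, was at 0.131 ± 0.124 in SMC and 3.88 in pericytes, lower in all 8 mice.

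Matrix genes differed in both directions between SMC and the neighbouring types. Eln, elastin, which gives vessels and airways their recoil, stood at 15.1 ± 6.74 in SMC, 0.300 in pericytes, 5.16 in peribronchial, 3.76 in adventitial and 2.36 in alveolar fibroblasts. Loxl1, a cross-linking enzyme of elastin, was at 1.78 ± 0.811 in SMC and 0.00277 in pericytes. Fbln1, fibulin-1, was at 0.0932 in SMC and 2.43 in peribronchial fibroblasts. Over the 15 elastic fibre genes, 4 were higher and 2 lower than in pericytes in all 8 mice, 3 higher and 4 lower than in peribronchial, 2 higher and 8 lower than in adventitial and 3 higher and 5 lower than in alveolar fibroblasts. Over all genes the higher and lower shares were 6.75% and 4.47% against pericytes, 4.77% and 4.14% against peribronchial, 5.37% and 7.13% against adventitial and 6.55% and 8.03% against alveolar fibroblasts. The summed level of the elastic fibre list had a median of 33.3 in SMC and 70.1 in adventitial fibroblasts. Read against the same shares, of 29 collagen and basement membrane genes, 5 were higher and 7 lower than in pericytes, and 6 were higher and 0 lower than in peribronchial fibroblasts. Of these 29, 3 were higher and 13 lower than in adventitial fibroblasts, and 3 higher and 6 lower than in alveolar fibroblasts. Col4a1 and Col4a2, the main chains of basement membrane collagen, were at 3.20 ± 1.46 and 2.25 ± 0.888 in SMC and at 11.1 and 9.49 in pericytes, whereas Col18a1 was at 3.39 ± 1.49 and 0.0889. Col1a1 and Col3a1, fibrillar collagens, were at 3.32 ± 2.06 and 4.82 ± 1.88 in SMC, within 1 SD of the peribronchial means of 3.24 and 5.34.

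The complex that ties actin to the basement membrane differed from both neighbours. Dmd, dystrophin, stood at 32.6 ± 6.00 in SMC, 3.75 in pericytes and 15.5 in peribronchial fibroblasts, while its homologue Utrn, utrophin, was at 3.52 ± 1.30 in SMC and 12.8 in pericytes. Sgcd, δ-sarcoglycan, was at 8.06 ± 3.80 and 0.0222. Itga8 was higher and Itga1, the collagen-binding integrin α1 (4.27 ± 1.36 in SMC, 17.4 in pericytes), lower than in pericytes in all 8 mice. Cavin1, which builds caveolae, was at 4.90 ± 1.93, 1.14 and 1.21. Of the 24 genes of this list, 8 were higher and 2 lower than in pericytes in all 8 mice (6.75% and 4.47% of all genes), and 11 were higher and 1 lower than in peribronchial fibroblasts (4.77% and 4.14%).

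Among secreted factors, Igfbp7, an IGF-binding protein, stood at 22.5 ± 3.77 in SMC, 0.988 in pericytes and 9.47 in peribronchial fibroblasts, and Slit3, a guidance ligand, at 11.4 ± 4.04, 0.378 and 0.367. Both were near their levels in adventitial fibroblasts, at 26.1 and 13.9. Angpt1, the Tie2 ligand that steadies endothelium, was at 6.76 ± 6.69 in SMC and 11.9 in pericytes, with a range over mice from 2.62 to 22.9. Of 33 genes, 6 were higher and 0 lower than in pericytes in all 8 mice (6.75% and 4.47% of all genes), and 7 were higher and 9 lower than in peribronchial fibroblasts (4.77% and 4.14%). Of 28 Notch, TGF-β and BMP response genes, 8 were higher and 5 lower than in pericytes (6.75% and 4.47% of all genes). Ccn2, connective tissue growth factor, stood at 8.41 ± 3.42 in SMC against 0.935 in peribronchial fibroblasts. Id4, a BMP target, was at 3.01 ± 0.977 in SMC and 0.188 in pericytes. Eng, endoglin, and Nrarp, a Notch target, ran lower than in pericytes in all 8 mice, at 0.943 ± 0.463 and 0.283 ± 0.182 against 6.76 and 1.58.

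Immediate-early genes, which respond to stimulation and also to cell dissociation, were mostly higher in SMC than in pericytes by value. Of 27 genes, 13 were higher than in pericytes in all 8 mice and 0 lower (6.75% and 4.47% of all genes), with a median log2 difference of 1.33 against 0.02 over all genes. Against peribronchial fibroblasts 0 were higher and 10 lower (4.77% and 4.14% of all genes), with a median of -0.51 against 0.01. Fos stood at 22.2 ± 3.70 in SMC, 3.6 in pericytes and 34.4 in peribronchial fibroblasts, Egr1 at 23.3 ± 5.44, 4.69 and 36.7 and Junb at 26.2 ± 15.7, 5.11 and 43.1. The pericyte mean of Fos hides a wide range (SD 4.13). Fos was at 0 to 1.48 in pericytes of the CS mice, which gave 3 to 22 pericytes each. It was at 10.5 and 9.45 in those of the RA mice F1 and F3, which gave 126 and 84 of the 272. In adventitial and alveolar fibroblasts Fos was at 20.2 and 22.8, close to SMC. The part of tissue digestion in these levels was not tested. Of 14 genes listed for the synthetic state of smooth muscle, 4 were higher and 0 lower than in pericytes in all 8 mice (6.75% and 4.47% of all genes). Thbs1, thrombospondin-1, was at 15.3 ± 5.74 in SMC and 0.0908 in pericytes, whereas Spp1, osteopontin, was at 0.937 ± 1.59 in SMC and 72.1 in pericytes, and was found in 4.03% of SMC.

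Mouse counterparts of genes at human COPD risk loci were read in the same way, from a list of 24 of which 14 passed the filter. Against pericytes 4 were higher and 4 lower in all 8 mice (6.75% and 4.47% of all genes), and against peribronchial fibroblasts 7 were higher and 1 lower (4.77% and 4.14%). Hhip, on this list, is not in these counts, since it was found in only 4 of 149 SMC. It stood at 50.2 in peribronchial fibroblasts. Thsd4, a fibrillin-binding protein, stood at 10.1 ± 4.71 in SMC, 2.18 in pericytes and 0.0581 in peribronchial fibroblasts, and Tns1, tensin-1, at 12.5 ± 3.09, 12.9 and 3.20. Adgrg6, an adhesion receptor, was at 0.539 ± 0.613 in SMC and 8.96 in pericytes, and Tbx4, a lung mesenchyme transcription factor, at 1.66 ± 0.650 and 6.73.

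The 149 cells were not uniform. When each cell was scored by the number of 4 pericyte transcripts it held (Trpc6, Cox4i2, Higd1b and Ndufa4l2, chosen after the data were seen), 86 cells held none, 37 held 1 and 26 (17.4%) held 2 or more. Every mouse had such cells: 1, 6, 5 and 5 in CS mice and 3, 3, 2 and 1 in RA mice. The 26 had a median of 4093 transcripts, against 6461 in the other 123; levels are given per 10,000. In the 6 mice with at least 2 of these cells, Acta2 was at 41.1 ± 10.9 in them and 148 ± 24.9 in the other SMC, and Myh11 at 13.5 ± 2.78 and 31.1 ± 6.56, each lower in 6 of 6 mice. Cnn1 was at 0.292 ± 0.247 and 10.2 ± 1.67, Actc1 at 0.593 ± 0.561 and 12.2 ± 5.52, Actg2 at 0.929 ± 1.10 and 8.48 ± 2.38 and Mgp at 12.0 ± 15.9 and 62.4 ± 25.6, all lower in 6 of 6 mice. Des did not follow: it was at 12.6 ± 4.96 and 13.8 ± 6.06, lower in 3 of 6.

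Several other pericyte and vessel wall genes, which the score did not use, were higher in these cells, but not all. Notch3 was at 11.8 ± 4.24 in the cells with 2 or more pericyte transcripts and 3.31 ± 0.737 in the others, Gucy1a1 at 15.2 ± 3.68 and 2.68 ± 0.940 and Pdgfrb at 8.36 ± 2.95 and 1.84 ± 0.507, each higher in 6 of 6 mice. Ltbp2, a latent TGF-β binding protein, and Col8a1, a collagen of vessel walls, were at 10.1 ± 7.04 and 9.80 ± 4.96 in these cells and 1.81 ± 1.13 and 1.37 ± 1.27 in the others, higher in 5 of 6 mice. Eln, elastin, was not higher by mean, at 11.2 ± 8.17 in these cells and 15.8 ± 9.26 in the others, lower in 4 of 6 mice. Over all 26 cells, Col8a1 (11.05) and Ltbp2 (10.9) exceeded the means over all 272 pericytes, 2.94 and 5.79. Each cell counts once in these means, and the RA mice F1 and F3 gave 126 and 84 of the pericytes. By these means the 26 cells did not lie between SMC and pericytes in every gene. Acta2 was found in 100% of the 26, against 6.99% of pericytes. Of all SMC, 20 held 2 or more of the peribronchial transcripts Aspn, Cdh4 and Pde10a, and 2 of these were among the 26. All of these values come from the cells that were clustered, so no test was made.

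**Figure D3:**
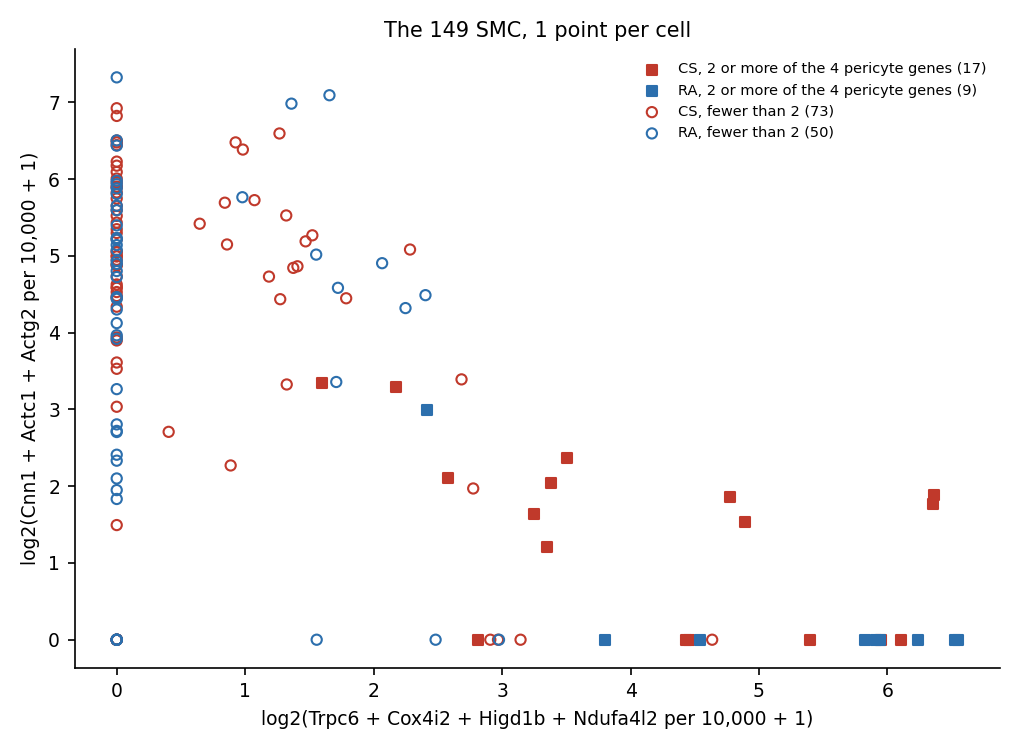
Each of the 149 SMC, placed by the summed level of 4 pericyte genes (x axis) and of Cnn1, Actc1 and Actg2 (y axis), both on the scale log2(transcripts per 10,000 + 1). Filled squares are the 26 cells that hold at least 2 of the 4 pericyte genes, 17 from CS and 9 from RA mice; these lie low on the y axis, and the cells high on it lie at the left.

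Defining markers of other cell types were found in few SMC, but other genes of the same lists in more. Ptprc (CD45) was found in 4 cells, the surfactant gene Sftpc in 2, the endothelial cadherin Cdh5 in 6, Pdgfra in 1, the mesothelial Msln in 1, the Schwann cell Sox10 in 1 and the fibroblast gene Lum in 0. Of 14 endothelial, 16 immune, 15 epithelial, 6 mesothelial and 9 Schwann cell and erythroid genes, 5, 2, 6, 1 and 3 passed the filter of 10% of SMC in a group. The most frequent were Rarres2, listed as mesothelial, in 87.9% of SMC, Cav1, caveolin-1, in 69.8%, Pecam1, Esam in 24.2%, Lyz2 in 15.4%, Hopx in 13.4% and Cd74 in 12.8%. Pecam1 was found in 48 SMC (32.2%), at 1.55 ± 0.695, and in 41.2% of pericytes and 37.7% of peribronchial fibroblasts. After thinning to 1000 transcripts these shares were 9.40%, 28.7% and 17.5%. The summed level of 15 epithelial markers was 39.9 in the CS mouse D5 and 9.27 in the RA mouse F1, with 0 the lowest. That of 16 immune markers ran from 0.135 to 12.0, with the highest values in D5 and, at 9.88, in the RA mouse M1. In all, 21 SMC held at least 2 transcripts each of at least 2 endothelial, immune or epithelial markers and were counted as of mixed identity; without them no gene was called between CS and RA, as with them.

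The first question on exposure was whether CS mice yielded more SMC. Among structural cells, SMC made up 0.664%, 0.892%, 0.535% and 0.362% in the CS mice C2, C5, D2 and D5, and 0.505%, 0.317%, 0.303% and 0.251% in the RA mice F1, F3, M1 and M3. The CS values lay mostly above the RA values, but the groups overlapped, since F1 exceeded D5. Within each lane code (C2 and F1, D2 and F3, C5 and M1, D5 and M3) the CS mouse had the higher share. The test below did not use these pairs. Counting error alone (exact 95% binomial interval) left a range of 0.622% to 1.24% for C5, with 35 SMC of 3924 structural cells, and of 0.0684% to 0.641% for M3, with 4 of 1594. The means were 0.613% ± 0.223 (SD, n = 4) and 0.344% ± 0.111 (SD, n = 4), and p was 0.0571 in an exact, two-sided permutation test (0.286 after Benjamini-Hochberg adjustment over 5 tests), where 0.0286 is the smallest p that 4 against 4 allow. As a share of mesenchymal cells the SMC were at 7.18%, 4.14%, 5.25% and 2.72% in CS mice and at 2.23%, 1.90%, 1.46% and 1.45% in RA mice, with no overlap (exact permutation p = 0.0286, not adjusted). Pericytes were 0.133%, 0.255%, 0.223% and 0.498% of structural cells in the CS mice C2, C5, D2 and D5, 2.27% and 1.66% in F1 and F3, and 0.358% and 0.251% in M1 and M3, where the SMC share of mesenchymal cells was lowest. The mesenchymal cells counted were SMC, pericytes, fibroblasts and mesothelium. The part of the pericytes and of the other types in that share was not tested. With the other denominators tried, the groups overlapped. As a share of all cells, F1 exceeded D5 (0.439% against 0.283%). The same held among structural cells without alveolar epithelium (0.553% against 0.390%) or with multiplets (0.488% against 0.351%). With only 4 to 35 SMC per library, and a sort between tissue and count, the shares carry counting error and recovery beside biology.

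The depth per SMC was compared as well. The median number of transcripts was 11954, 5917, 6124 and 7773 in CS mice and 4101, 5023, 6187 and 6079 in RA mice, which overlapped (exact permutation p = 0.143, adjusted 0.357). The summed level of the 38 contractile genes was 844, 633, 467 and 576 in CS mice and 626, 498, 468 and 317 in RA mice. Over the 4 CS mice and the 3 RA mice with at least 10 SMC the log2 difference was 0.23, and it lay between 0.08 and 0.36 when each mouse was left out in turn. In single cells the sum ran from 57.2 to 1326 with a median of 556, that is 5.56% of a cell's transcripts.

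**Figure D4:**
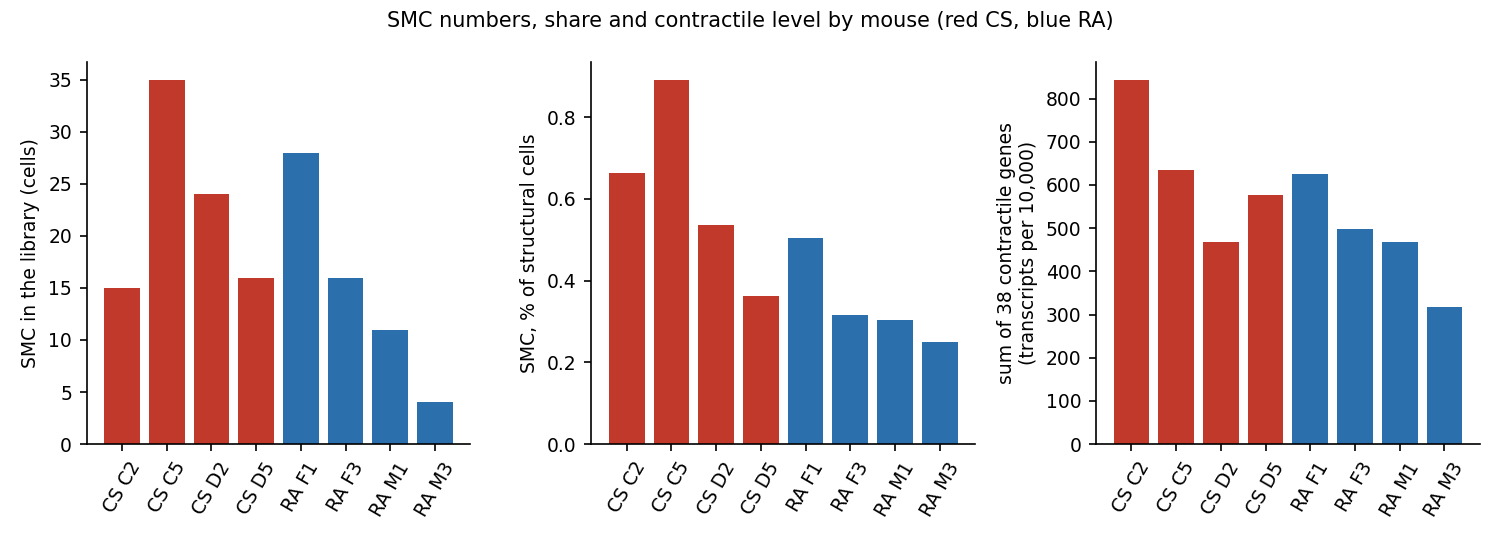
Number of SMC per library (left, cells), their share of structural cells (middle, percent) and the summed level of the 38 contractile genes (right, transcripts per 10,000) in each mouse; red bars are CS mice and blue bars RA mice. The shares of CS mice ran from 0.362% to 0.892% and those of RA mice from 0.251% to 0.505%; the contractile sums overlapped, with C2 (844) and C5 (633) above every RA mouse and M3 (317) below every CS mouse.

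Gene levels were compared between the 4 CS mice and the 3 RA mice with at least 10 SMC, using limma on log2(level + 1) for 8,880 genes. No gene passed an adjusted p of 0.05 (0% called); 620 genes, or 6.98%, had an unadjusted p under 0.05, of which 336 were higher and 284 lower in CS. Data of this size were also simulated, with a spread between mice that was set in advance and not taken from these mice. There, log2 changes of 2 were recovered for 21 of 25 genes (84%) at levels from 1 to 5 and 18 of 71 (25.4%) below 1. Log2 changes of 1 were recovered for 1 of 18 (5.56%) and 1 of 80 (1.25%). At levels of 5 or more, 4 of 4 changes of 2 and 0 of 2 changes of 1 were recovered. Under these settings most changes of 1, and most changes in weakly expressed genes, were not detected with 7 mice. The marker genes did not differ beyond the spread between mice: the log2 difference CS minus RA was 0.19 for Acta2 (SE 0.21, adjusted p 0.872), 0.37 for Myh11 (SE 0.26, adjusted p 0.792) and -0.04 for Des (SE 0.32, adjusted p 0.990). Without 1 mouse the difference ran from 0.03 (without C2) to 0.36 (without D2) for Acta2 and from 0.16 (without C2) to 0.54 (without D2) for Myh11. With all 8 mice it was 0.44 for Acta2 (SE 0.26, limma adjusted p 0.796) and 0.38 for Myh11 (SE 0.27, limma adjusted p 0.814). Exact permutation tests of the 3, where 4 against 3 allow no p under 0.0571, gave 0.514, 0.286 and 0.971.

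Tcap came closest to a call. This gene, telethonin, a cap of titin at the Z-disc in striated muscle (chromosome 11, 98383811 to 98384953), stood at 7.89, 4.91, 4.14 and 3.83 in SMC of the CS mice and at 1.88, 0.600 and 0.606 in those of the RA mice F1, F3 and M1. Every CS mouse lay above every RA mouse, as for 4.98% of all genes tested. The RA mouse M3, with 4 SMC, held none. The log2 difference was 1.62 (SE 0.27) with a limma adjusted p of 0.0528, and in each of the 3 lane codes with both mice tested CS was the higher. With the lane code as a block, which gives the CS mouse D5 no partner and so leaves it without weight, the adjusted p was 0.00124. Without 1 mouse at a time it ran from 0.0153 to 0.214. Tcap was called in 7 of 25 alternatives, over which its log2 difference ran from 0.93 to 2.35. Its adjusted p was 0.116 with summed counts, 0.131 without the cells of mixed identity and 0.822 with no filter on genes. A Wilcoxon test, which takes each cell as a replicate, did not call it. At 20 or more SMC per mouse only 1 RA mouse was left, so that fit is no test of exposure. Tcap was absent from the 26 SMC with pericyte transcripts, of which CS mice had 17 and RA mice 9. They made up 6.67%, 17.1%, 20.8% and 31.25% of the SMC in CS mice and 10.7%, 18.8%, 18.2% and 25% in RA mice. Without these 26 cells the adjusted p was 0.0178. In peribronchial fibroblasts Tcap stood at 2.38 ± 1.14 in CS and 1.08 ± 0.427 in RA mice (n = 4 each), and the groups overlapped.

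Dbp, a transcription factor of the circadian output loop, was next. It stood at 4.70, 2.91, 1.74 and 0.783 in CS mice and at 0.242, 0.144 and 0.281 in F1, F3 and M1, but at 3.35 in M3, whose 4 SMC were not in the test. The log2 difference was 1.40 (SE 0.28, limma adjusted p 0.307; 0.00124 with the lane code as a block, which gives the CS mouse D5 no partner and so leaves it without weight). Without D5 the adjusted p was 0.0292, and without 1 mouse at a time it ran from 0.0292 to 0.699. Dbp was found in 51 SMC of CS mice and in 10 of RA mice. RA mice had fewer SMC (mean 14.75 against 22.5 per mouse), and their median depths averaged 5347 against 7942 transcripts.

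The other genes with the 5 smallest p in each direction did not pass, each with an adjusted p of 0.652. Higher in CS by value were Rcan2, a calcineurin regulator (log2 difference 0.94), Parm1 (0.85), and Postn (1.07), which stood at 3.01, 4.47, 5.30 and 4.62 in CS mice and at 0.677, 1.40 and 2.97 in RA mice. Lower in CS by value were the glucocorticoid-responsive Zbtb16 (-1.11) and Tsc22d3 (-0.92), the interferon-inducible Ifitm1 (-0.99), the helicase Dhx40 (-0.78) and the glutathione transferase Mgst1 (-0.82). Zbtb16 stood at 4.70, 2.42, 1.87 and 2.44 in CS mice and at 9.25, 6.52 and 5.71 in RA mice, but at 1.80 in M3. Every tested CS mouse lay below every tested RA mouse for these 5 genes, as for 3.19% of all genes. Tsc22d3 stood at 0.472, 0.236, 0.815 and 0.726 in CS mice and at 2.27, 2.60 and 1.14 in RA mice, with 1.37 in M3.

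**Figure D5:**
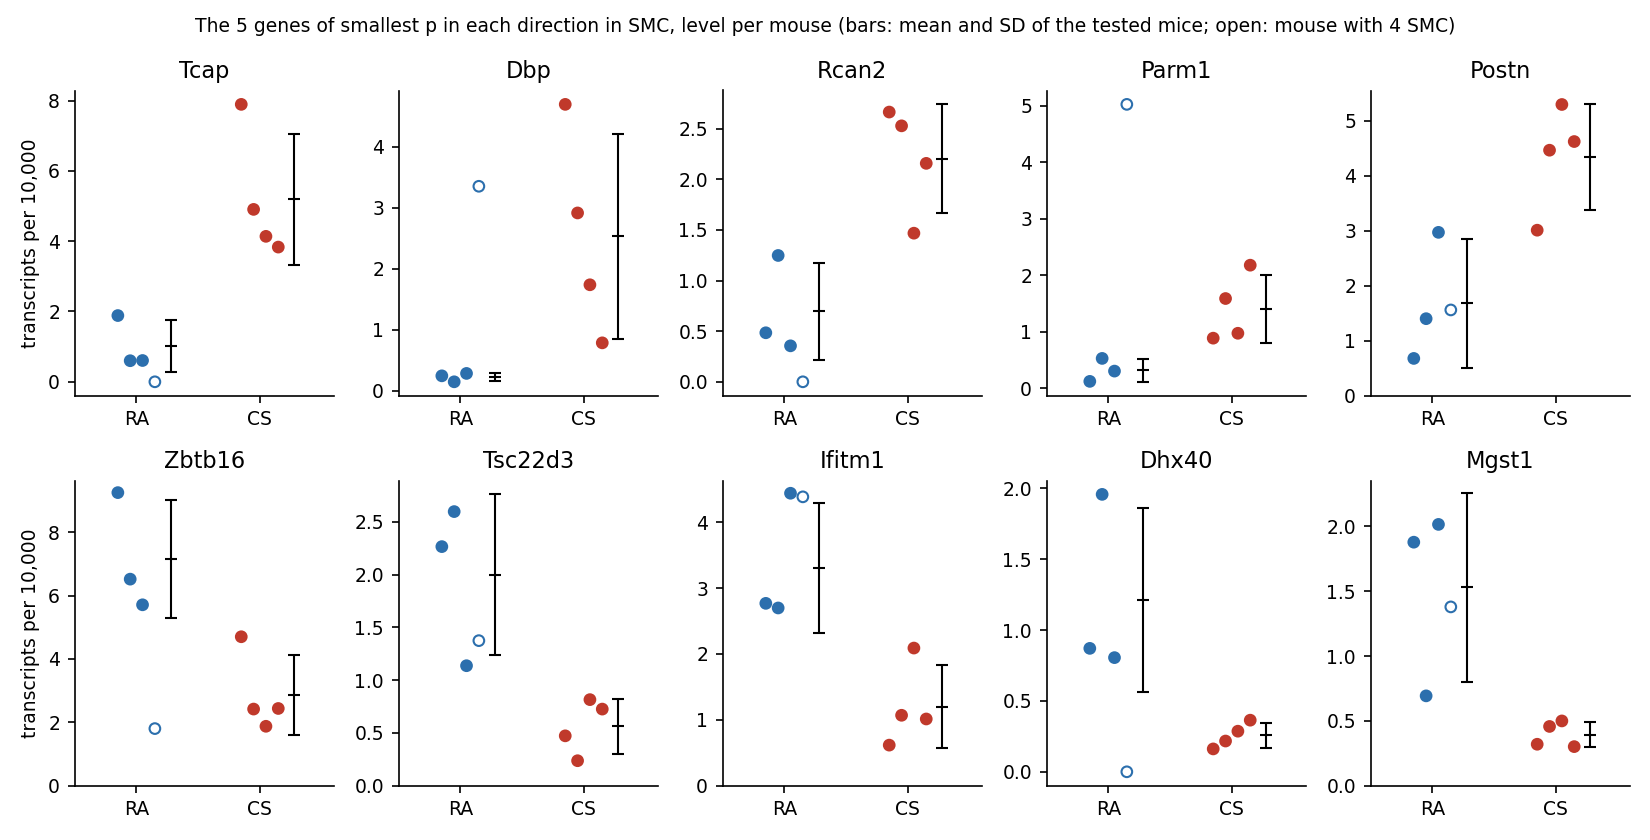
Level per mouse (transcripts per 10,000) of the 5 genes with the smallest p in each direction; filled points are mice in the test (red CS, blue RA), the open point is the RA mouse with 4 SMC, and bars are mean and SD of the tested mice. All 10 separate the tested mice without overlap, and none had an adjusted p under 0.05; for Dbp, Parm1, Zbtb16 and Dhx40 the open point lies among or beyond the CS mice.

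The 10 genes were read in neighbouring cell types, where the CS mouse C2 had 3 pericytes and the RA mouse M3 had 4. Postn in pericytes stood at 27.5 ± 12.1 in CS and 13.1 ± 3.30 in RA mice (n = 4 each). Zbtb16 stood at 1.97 ± 0.609 in CS and 6.68 ± 2.39 in RA in pericytes and at 5.89 ± 1.24 and 10.4 ± 1.02 in alveolar fibroblasts. Tsc22d3 stood at 0.761 ± 0.520 in CS and 3.24 ± 1.16 in RA in pericytes, at 1.06 ± 0.0816 and 2.7 ± 1.11 in adventitial fibroblasts and at 1.75 ± 0.447 and 5.51 ± 1.63 in alveolar fibroblasts. Dbp in adventitial fibroblasts was at 2.11 ± 0.682 in CS and 0.613 ± 0.345 in RA. Its log2 differences of 0.31 in pericytes, 0.61 in peribronchial and 0.76 in alveolar fibroblasts came with overlapping groups. Mgst1 had a log2 difference of -0.38 in peribronchial fibroblasts, where every CS mouse lay below every RA mouse, and of -0.21 in alveolar fibroblasts. With overlapping groups, the sign of SMC was also seen for Ifitm1 in pericytes (-0.68) and Zbtb16 in peribronchial (-0.85) and adventitial fibroblasts (-0.42). In peribronchial fibroblasts the same held for Tcap (0.64) and Tsc22d3 (-0.29). Differences near 0 or opposite in sign to SMC included Ifitm1 in adventitial (0.07) and alveolar fibroblasts (0.03) and Dhx40 in alveolar fibroblasts (0.01). In pericytes they included Rcan2 (-0.02), Parm1 (-0.02) and Mgst1 (0.05). How many of all genes separate CS from RA in these types was not computed. These types come from the same 8 libraries as the SMC, so the values are not separate evidence.

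By group, 0 genes of any list were called. Over all genes tested the median log2 difference was 0.02 and 54.9% of genes lay above 0. All 13 vascular smooth muscle genes lay above 0 (median 0.26), but the summed level of the whole list in the untested RA mouse M3 was 70.4, above the 44.9 to 53.4 of the CS mice. Above 0 were also 29 of 37 contractile genes (median 0.19) and 18 of 24 integrin and dystrophin complex genes (median 0.19). Itga8 had a log2 difference of 0.79 (SE 0.26, adjusted p 0.663) and Notch3 of 0.40 (SE 0.24, adjusted p 0.750), by limma. Of 10 genes of clock output, 9 lay above 0 (median 0.50) and in 6 every CS mouse lay above every RA mouse tested: Dbp, Nr1d1 (0.75), Hlf (0.66), Tef (0.54), Bhlhe41 (0.50) and Nr1d2 (0.31), where 4.98% of all genes did so. In the untested RA mouse M3 the summed level of the clock output list was 12.1, above 3 of the 4 CS mice (16.2, 11.8, 10.1 and 11.6), while F1, F3 and M1 were at 6.98, 6.62 and 6.34. The exception below 0 was Tsc22d3. Of 5 genes of the opposite clock phase, 4 lay below 0. Only 8 of 24 chaperones and 10 of 26 cytokine and interferon response genes lay above 0. Members of a list share mice and are not replicates.

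Whether the exposure difference in SMC differed from that in pericytes could be tested in 6 mice with at least 10 cells of both types, the CS mice C5, D2 and D5 and the RA mice F1, F3 and M1. Of 9,824 genes, 1 (0.0102%) was called by limma, and 601 had an unadjusted p under 0.05. This was Fosb, an AP-1 subunit (chromosome 7, 19302696 to 19310051). In SMC it stood at 12.3, 12.8 and 13.4 in CS and at 6.03, 6.67 and 11.2 in RA mice. In pericytes it stood at 0.612, 0.162 and 0.997 in CS and at 6.8, 6.09 and 6.43 in RA mice. In these 6 mice CS was higher in SMC and lower in pericytes. In the SMC of the mice left out, Fosb stood at 10.5 in the CS mouse C2, below M1, and at 15.5 in the RA mouse M3, the highest of all 8, so over all mice the groups overlapped in SMC. In pericytes every CS mouse was below every RA mouse, with C2 at 0 and M3 at 4.85, from 3 and 4 pericytes. The difference of the log2 differences was 2.93 (SE 0.32, adjusted p 0.0394). The call was lost with the lane code as a block (adjusted p 0.999) and without 5 of the 6 mice in turn, where it ran up to 0.432. The median over 27 immediate-early genes was 0.89, with 26 above 0, against a median of 0.05 and 56.2% above 0 over all genes. The CS mice in this comparison had 10, 10 and 22 pericytes, and F1 and F3 had 126 and 84. For Acta2, Myh11 and Des the difference of differences was -0.48 (SE 3.64), 0.02 (SE 0.43) and 0.07 (SE 0.48), with adjusted p of 0.992, 0.997 and 0.992 by limma. In this fit limma draws each SE toward a trend over the mean SMC minus pericyte difference, which was large for Acta2. The SE and p of Acta2 therefore do not measure the spread between these 6 mice alone.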

How the data were processed

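Single-cell RNA was measured by the authors with the 10x Genomics 3′ v3 assay in lung suspensions of 4 CS and 4 RA mice. Per the labels, reads were aligned with STAR 2.7.3a (STARsolo) to GRCm38.p6. The deposited values are estimated counts of UMIs, from which the authors had removed free RNA with SoupX, so that only 1.28% of the values are whole numbers, within 1e-06, and count models were not used. The authors clustered the cells with Seurat and named the types by hand, and cells they labelled as multiplets or cell cycle were left out. No further doublet caller was run.

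Counts were scaled to 10,000 per cell and averaged per mouse and type. Exposure was tested with limma 3.58.1 (R 4.3.3, eBayes with trend) on log2(mean + 1) in mice with at least 10 SMC (20 left too few RA mice), for genes found in at least 10% of SMC of either group, with Benjamini-Hochberg adjustment over all genes tested and 0.05 as threshold. For single values, two-sided exact permutation tests over mice were run in Python 3.11.15 with scipy 1.17.1. Intervals are exact binomial ones at 95% and, like the limit of 3 counts for a count of 0, cover counting error only. The replicates are separate mice. Lane codes in the library names pair a CS with an RA mouse. The correlation of deviations from the group means within a lane code was 0.142, 0.0653 and 0.0419, against a median of -0.0317 between codes, and the lane code as a block was an alternative. The tests were tried on simulated data of 8,880 genes, where 3 of 8,680 unchanged genes were called.

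The members and the 29 gene lists were chosen with earlier results of these data known. The genes named were the 3 markers, the most abundant members of each list and those with the largest differences to pericytes, the 20 with the largest ratio of SMC to the next type, and the 5 with the smallest p in each direction of exposure. Hhip, Cdh4 and other genes outside this rule were chosen after their values were seen, and not every gene that the rule names is reported here. Gene positions are from GENCODE M21. The CArG box was searched in RefSeq promoter windows. Alternatives were other pseudocounts, filters, minimum cell numbers, scalings and subsets of cells, summed counts, weights by the number of SMC, the labelled sex or lane code as a term, a Wilcoxon test over cells, and leaving out each mouse.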

Additional observations from a re-analysis of the deposited data

Results flagged for a closer look

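In the RA mouse M3, whose 4 SMC were too few for the tests, Dbp stood at 3.35, far from 0.144 to 0.281 in the other RA mice, and Parm1 at 5.03, far from 0.125 to 0.531. Both values lay apart from the 3 others by more than Dixon's critical value allows. Of 36 groups of 4 mice looked at, 2 were singled out in this way, where chance gives about 1 in 20, or 1.8. With M3 included, no CS-RA separation remains for either gene.

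Fosb had a different exposure difference in SMC than in pericytes, by 2.93 on the log2 scale, in a test of the difference itself (limma, adjusted p 0.0394). The settings under which this call was lost are given with the results that depend on the processing.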

How the results depend on the processing

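Main limits are the 4 to 35 SMC per mouse, the 7 mice in the exposure test, the exposure labels as the only grouping in CS libraries whose sex labels went against the data, and values that cannot be turned back into raw counts. Against 0 genes called between CS and RA, 1 was called with a pseudocount of 0.5, with all 8 mice, with cells holding both Acta2 and Myh11 only, without the cells with pericyte transcripts and with median scaling, in each case Tcap. With the lane code as a block, 2 were called (Tcap and Dbp). Leaving out each mouse gave 0 to 1 calls: Dbp without CS replicate 4 (D5) and Tcap without RA replicate 1 (F1). A Bonferroni-corrected Wilcoxon test that takes each cell as a replicate called 4 (Dbp, Gm3511, Nfix and Thsd4). The alternatives with all 8 mice and without the cells with pericyte transcripts were chosen after seeing the data. The Acta2 difference was -0.20 at 20 or more SMC per mouse, which left 2 CS mice (C5 and D2) against 1 RA mouse (F1), assumed to vary like the CS mice. The Des difference, -0.04, was 0.0246 with all 8 mice, 0.0475 without cells of mixed identity, 0.13 with the lane code as a block, -0.80 at 20 or more SMC per mouse and -0.30 with summed counts, and ran from -0.36 to 0.30 without 1 mouse (0.09 without CS replicate 3, 0.13 without CS replicate 4, 0.30 without RA replicate 1). As a share of mesenchymal cells, SMC differed by 3.06 percentage points with an exact permutation p of 0.0286. Of 12 alternatives for the SMC share, this was the 1 that was stronger than the main result. Leaving out each mouse moved the difference in the share of structural cells between 0.176 and 0.353 points. In the comparison with pericytes, the count fell from 1 to 0 with a pseudocount of 0.1, with summed counts and with the lane code as a block, and without 1 mouse it ran from 0 to 1 and was 0 for all mice but RA replicate 3 (M1). The cause of these shifts was not tested. Fosb kept its direction in all 10 alternatives, from 2.25 to 4.20. The differences of Acta2, Myh11 and Des to pericytes and fibroblasts kept their direction in all 11 alternatives, for Acta2 to pericytes from 6.14 to 6.52.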
